A study of Mus musculus with 25 samples.

Results

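The CD68 segments of injured lung were compared with those of healthy lung in spatial RNA data from mice carrying SP-C I73T, a mutation in surfactant protein C. A segment is the part of a tissue region from which the GeoMx instrument collected probe barcodes, here the cells stained for both CD45 and CD68, and its members were chosen by their labels, not by their counts. They were the immune segments of injured regions 4, 5, 7, 8 and 11 and of healthy regions 1, 3 and 13, which made 8 of the 25 samples of the series (5 injured and 3 healthy). By the sample labels, the injured regions came from 1 male SP-C I73T mouse at day 14 after oral tamoxifen (175 mg/kg by the labels), and the healthy regions from 1 male SP-C I73T mouse labelled as untreated at day 0. Both animals therefore carried the mutant allele, and tamoxifen was given to the injured one. For injured region 4 the sources differ, since the study's segment annotation classes it as injured but gives it the tissue number of the healthy regions. The labels were followed, and the count of calls and the share of variance are also given without it. In this model tamoxifen activates a Flp recombinase placed at the Rosa26 locus, which removes a cassette within Sftpc and so raises the mutant protein in alveolar type 2 cells. The study chose regions by histology, after inflammation, epithelial thickening and remodeling, and called regions of a class technical replicates. By the labels, every p-value below is over regions of 1 mouse against regions of 1 other mouse. Such values understate the uncertainty over animals, of which each class has 1, and the state of the region and the mouse it came from cannot be told apart.

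CD68 is a glycoprotein of endosomes and lysosomes that marks macrophages and monocytes, and CD45 is carried by nearly all leukocytes. The lung holds resident alveolar macrophages, which clear surfactant and debris from the air spaces, and interstitial macrophages in the tissue between them. During injury, monocytes enter from the blood and become macrophages alongside the resident cells, and macrophages of fibrosing lung are known for secreting matrix proteins and growth factors.

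Each probe of the assay reports 1 transcript through a barcode that is cut off by light and sequenced. The count files list 20175 probes by barcode identifier (RTS followed by digits), and neither they nor the tables used here pair an identifier with a gene symbol. Probes are therefore described by identifier, level and pattern, and the CD68 label was not checked against macrophage markers or the markers of neighboring cells. A segment is a small area with several cells, so that fewer cells of a type and less RNA per cell cannot be told apart.

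The injured CD68 segments were larger and deeper than the healthy ones. The total count was 43633, 56172 and 35909 in healthy regions 1, 3 and 13, against 74049, 119493, 74139, 71786 and 84152 in injured regions 4, 5, 7, 8 and 11. The classes did not overlap, and the injured mean of 84724 ± 20016 (SD, n = 5) was 1.87 times the healthy mean of 45238 ± 10226 (SD, n = 3). The area was 2.11 times larger in injured segments, at 13008 ± 4745 against 6170 ± 687, in the unit of the worksheet deposited with the counts, which has no name there. Counts per 1000 units of area overlapped, at 6761 ± 1059 in injured and 7355 ± 1518 in healthy segments (exact permutation test, two-sided, p = 0.571, adjusted p = 0.667 over 7 measures).

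More of the probes were seen in injured segments. Between 18611 and 19702 probes had a count there, against 14590 to 17306 in healthy segments. At an equal depth of 35909 counts, the total of healthy region 13, between 14923 and 15325 probes were expected in injured and between 14506 and 14883 in healthy segments. Total count, area, probes with a count and probes at equal depth were each separated without overlap (exact permutation test, two-sided, p = 0.0357, the smallest that 5 against 3 segments allow, adjusted p = 0.0625 over 7 measures). The 100 most abundant probes of a segment held a similar share of its counts in both classes, 9.81% ± 0.677 in injured and 9.97% ± 0.857 in healthy segments (exact permutation test, p = 0.964, adjusted p = 0.964).

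The share of background was estimated from the 2018 least abundant probes, which were chosen in the non-immune segments, the DNA-positive area without CD45 of the same regions. It was 31.1%, 37.9% and 29.8% in healthy regions 1, 3 and 13, and 40.2%, 40.4%, 37.0%, 39.6% and 38.9% in injured regions 4, 5, 7, 8 and 11. Healthy region 3 thus lay within the injured range, and the difference did not pass the test (exact permutation test, two-sided, p = 0.0714, adjusted p = 0.1). Depth, area and background moved with the class in this way for every probe below. The part of area and background in the results was not tested, and calls at equal depth are given with the counts of calls.

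**Figure D1:**
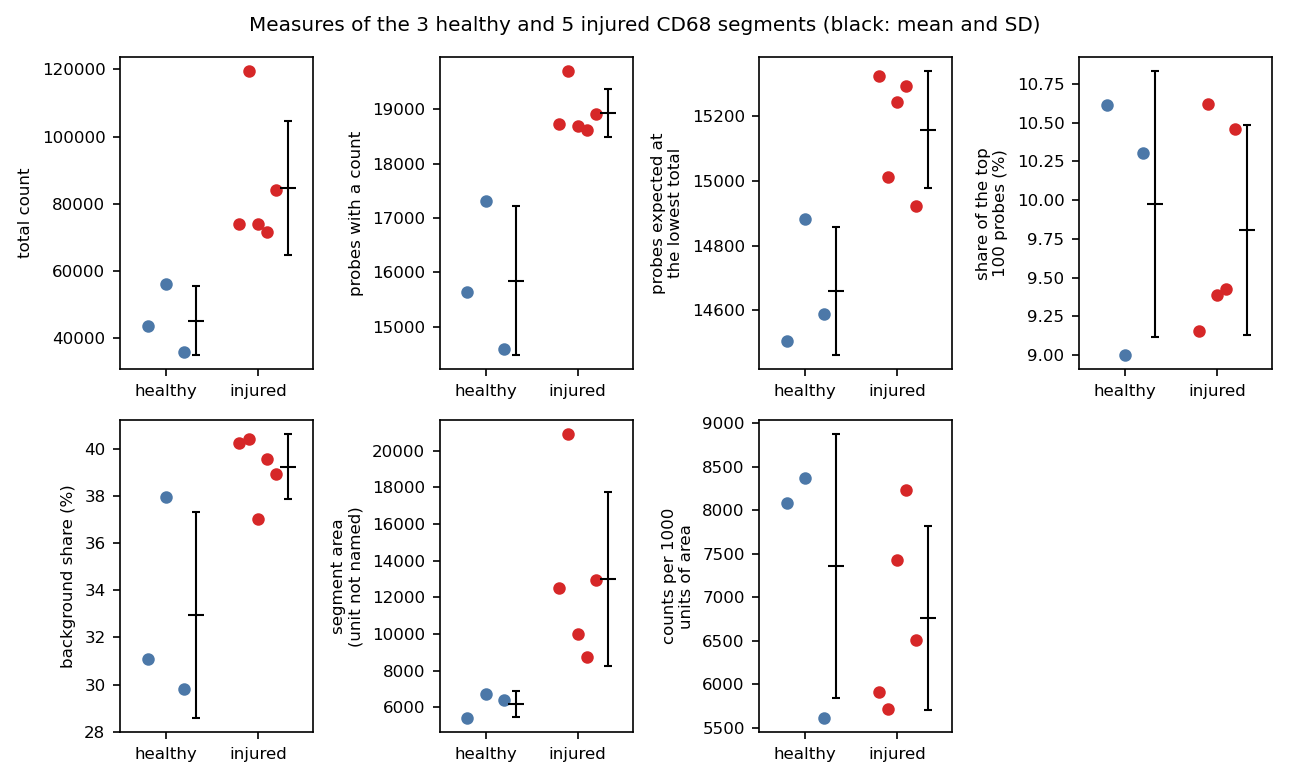
The 7 measures of the 3 healthy (blue) and 5 injured (red) CD68 segments, 1 point per segment in the order of region number, with the class mean and SD in black; the vertical axes do not start at 0. Total count, area and both numbers of probes separate the classes, whereas the share of the 100 most abundant probes and the counts per area overlap.

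Between classes lay 23.3% of the variance of the 8 segments over the 6000 most abundant probes (log2 of normalized count plus 1, pseudo-F = 1.82). No other assignment of 5 and 3 segments gave as large a share (exact permutation test over 56 assignments, p = 0.0179, the smallest possible). In distances not taken at equal depth, the healthy segments, which had the lower totals, were no more alike than segments of different classes. Their Euclidean distances from each other were 77.3 to 88.3, while injured segments lay 57.6 to 69.6 apart and an injured and a healthy segment 70.1 to 89.0 apart. With all segments thinned to equal totals the share was 17.2% and no longer the largest of the 56 (exact permutation test, p = 0.0357). Without injured region 4 it was 24.6% (exact permutation test over 35 assignments, p = 0.0286, the smallest possible).

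Of the 6000 probes tested, 43 were called between the injured and the healthy CD68 class (adjusted p under 0.05 in the quasi-likelihood test of edgeR, with Benjamini-Hochberg adjustment), which is 0.717% of the probes. In injured segments, 17 of them were higher (0.283%) and 26 were lower (0.433%). Under total count scaling the split was 11 higher and 56 lower, and under limma 26 higher and 12 lower. The median log2 fold change over all 6000 probes was 0.21 rather than 0, and it moved to 0.04 with TMM factors and to -0.12 with total count scaling. Each log2 fold change of injured over healthy CD68 segments below includes this shift. The median was 0.04 from healthy to peri-injured and -0.17 from injured to peri-injured CD68 segments. For the CD68 change minus the non-immune change it was 0.11. The calls were concentrated in abundant probes, where the error was smaller. Among the 100 most abundant probes 15 were called (15%), 9 higher and 6 lower, and the median SE of the log2 fold change was 0.34. Among the 1000 least abundant of the 6000 there was 1 call and the median SE was 0.64. Abundance was ranked by the mean share over the 12 CD68 segments, so that a raised probe gains rank by its own change. With the 8 segments alone, without the peri-injured ones, 48 probes were called, 42 of them among the 43. With these 8 thinned to equal depth, 38 probes were called, 31 of them among the 43. Without healthy region 1 there were 22 calls, without healthy region 13 there were 24 and without injured region 5 there were 28. Without injured region 4, whose tissue number is in doubt, there were 36 calls, 17 higher and 19 lower, and 35 of them were among the 43.

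**Figure D2:**
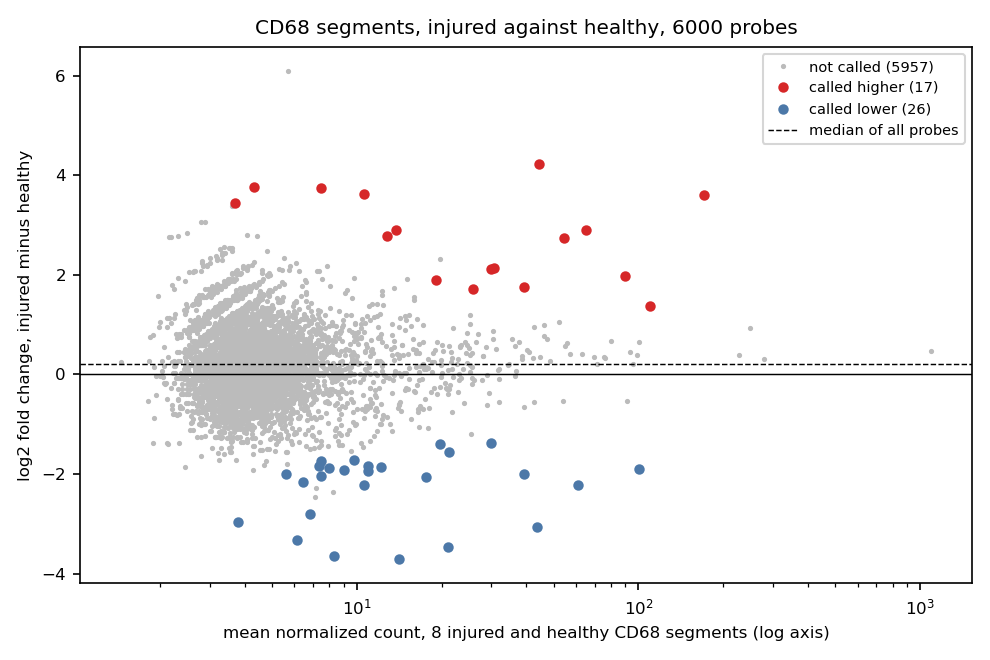
Log2 fold change of injured over healthy CD68 segments (vertical axis) against the mean normalized count of the 8 segments (horizontal axis, log scale) for 6000 probes. The 17 probes called higher (red) and 26 called lower (blue) lie outside a cloud centered on the dashed median of 0.21; 1 probe at a log2 fold change of 6.09 was not called.

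Separation of single probes was more common than a call. The normalized counts of the 5 injured and 3 healthy segments did not overlap for 412 of the 6000 probes (6.87%), higher in injured segments for 295 of them (4.92%) and lower for 117 (1.95%). Of the 43 called probes, 32 were among these, 14 of the 17 higher and 18 of the 26 lower ones. The other 11 calls rested on segments whose ranges overlapped.

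The 17 probes higher in injured CD68 segments had log2 fold changes of 1.37 to 4.23, with a median of 2.79 (median over all 6000 probes 0.21) and adjusted p-values between 8.6e-06 and 0.0427. Together they held 0.376%, 0.397% and 0.309% of all counts in healthy regions 1, 3 and 13. In injured regions 4, 5, 7, 8 and 11 they held 1.02%, 2.33%, 1.13%, 1.08% and 2.08%. Regions 5 and 11 were thus the richest in these probes, which were chosen for being higher in injured segments. Injured region 5 was the highest of the injured segments for 11 of the 17, region 11 for 3, region 8 for 2, region 7 for 1 and region 4 for none. The SD among injured segments had a median of 60.8% of their mean.

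The largest change among probes with separate classes and a call in all 8 fits with 1 segment left out was that of RTS0081477, the 7th most abundant of the 6000. Its counts were 2, 4 and 3 in healthy regions 1, 3 and 13, and 22, 390, 18, 11 and 80 in injured regions 4, 5, 7, 8 and 11. It was near the floor in every healthy segment, above it in every injured segment, and highest in region 5. As normalized counts the classes averaged 3.66 ± 1.10 (SD, n = 3) and 68.9 ± 95.1 (SD, n = 5), a log2 fold change of 4.23 (SE 0.77, edgeR adjusted p = 0.00095) or 18.8-fold. Without injured region 5 the log2 fold change was 2.89.

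The next, RTS0064055, was the 5th most abundant probe. Its counts were 26, 15 and 12 in healthy regions 1, 3 and 13, and 111, 802, 76, 69 and 759 in injured regions 4, 5, 7, 8 and 11. Regions 5 and 11 again stood above the other injured regions, at normalized counts of 484 and 573 against 65.6 to 112. All 5 lay above the healthy segments, the highest of which was 31.4. The log2 fold change was 3.60 (SE 0.53, edgeR adjusted p = 2.7e-05), or 12.1-fold.

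Injured regions 5 and 11 were not both above the rest in every raised probe, and 2 such probes are described here. The 25th most abundant probe had normalized counts of 106, 45.9, 111, 134 and 87.6 in injured regions 4, 5, 7, 8 and 11, against 14.5, 19.1 and 3.02 in healthy regions 1, 3 and 13. Here region 5 was the lowest of the injured segments. Its log2 fold change was 2.91 (SE 0.42, edgeR adjusted p = 1.8e-05). The 40th most abundant probe was highest in region 5 and lowest in region 11, at 85.5, 115, 79.4, 74.5 and 46.8 against 13.3, 14.1 and 7.55, with a log2 fold change of 2.75 (SE 0.38, edgeR adjusted p = 8.6e-06). Both were called in all 8 fits with 1 segment left out.

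Of the 17 probes, 4 had at most 3 counts in the 3 healthy segments together, and their fitted fold changes rest on those few counts. Without them the median log2 fold change of the remaining 13 was 2.14. A call was kept in all 8 fits with 1 segment left out by 4 of the 17, and in 3 or fewer of these fits by 5. These p-values and counts cover the regions of a single pair of mice.

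**Figure D3:**
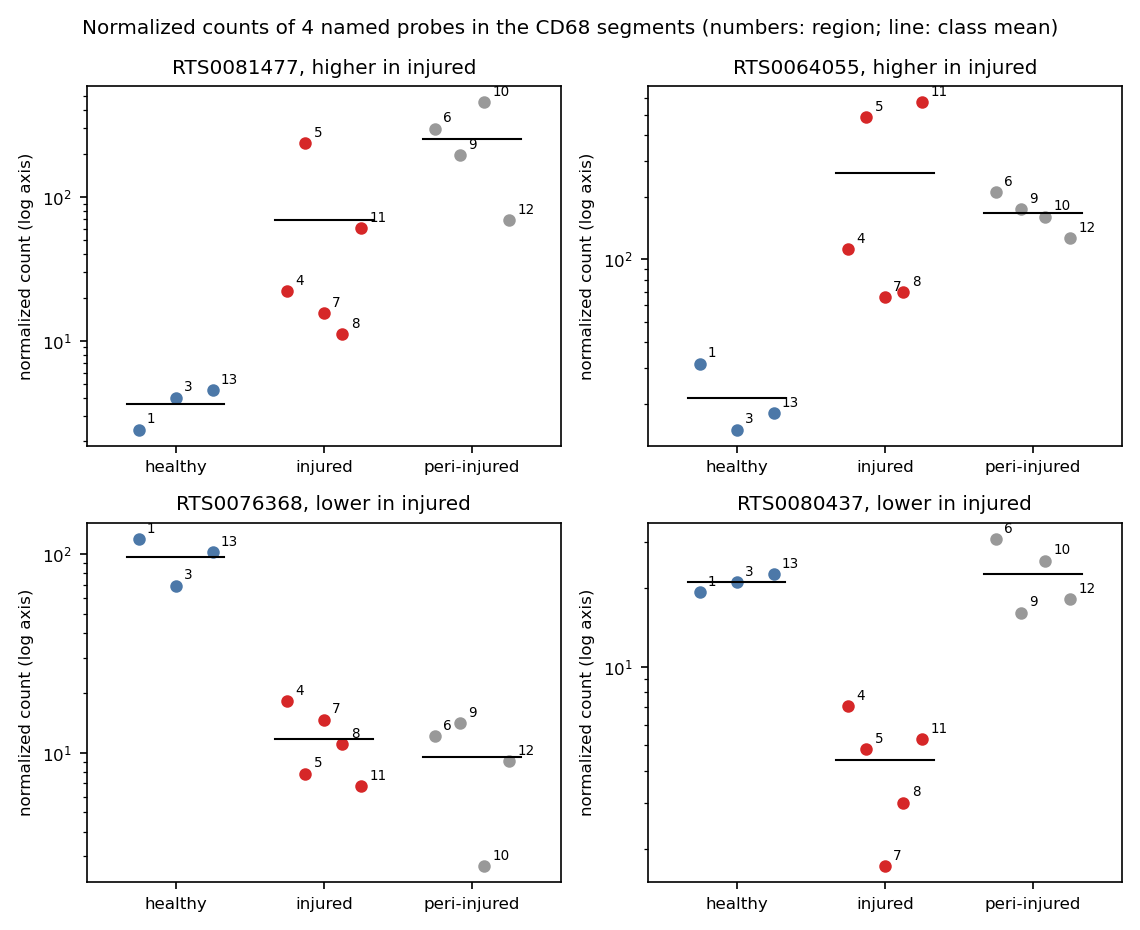
Normalized counts (vertical axes, log scale) of 4 probes in the healthy (blue), injured (red) and peri-injured (gray) CD68 segments, with region numbers beside the points and a line at each class mean. The 5 injured and 3 healthy segments do not overlap in any of the 4 panels. RTS0080437 is low in injured segments alone. RTS0081477 has its highest class mean in peri-injured segments, whose range overlaps that of the injured ones.

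The 26 probes lower in injured CD68 segments had log2 fold changes of -1.38 to -3.71, with a median of -2.01 and adjusted p-values between 7.9e-08 and 0.0427. Together they held 2.04%, 1.24% and 2.07% of all counts in healthy regions 1, 3 and 13. In injured regions 4, 5, 7, 8 and 11 their share was 0.267%, 0.358%, 0.415%, 0.233% and 0.317%. Every injured segment had a smaller share than every healthy one, in a list chosen on these same counts. The SD among injured segments had a median of 47.2% of their mean. Of the 26, 23 were among the 1000 most abundant probes.

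The 26 fell into 3 patterns of healthy counts. In 18 the classes did not overlap and no healthy segment held more than 60% of the healthy normalized counts. In 5 others a single healthy segment held more than 90%, region 13 for 3 of these probes and region 1 for 2, and the other healthy segments lay within the injured range. The remaining 3 overlapped without such a segment. The 5 probes of 1 segment included the 4 most negative fold changes. The most negative, at -3.71 (SE 0.68, edgeR adjusted p = 0.00095), had 1, 2 and 65 counts in healthy regions 1, 3 and 13 and 2, 4, 2, 5 and 1 in injured regions 4, 5, 7, 8 and 11. For these 5 the call rested on 1 healthy segment.

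The smallest adjusted p of all probes was that of RTS0076368, the 49th most abundant. Its counts were 99, 69 and 68 in healthy regions 1, 3 and 13, and 18, 13, 17, 11 and 9 in injured regions 4, 5, 7, 8 and 11. All healthy segments were well above all injured ones despite their lower totals. The normalized counts averaged 97.2 ± 25.5 (SD, n = 3) and 11.7 ± 4.72 (SD, n = 5), a log2 fold change of -3.07 (SE 0.35, edgeR adjusted p = 7.9e-08), or 8.40-fold lower. Over the fits with 1 segment left out it ranged from -3.27 to -2.89.

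RTS0080437, the 212th most abundant probe, had 16, 21 and 15 counts in healthy regions 1, 3 and 13, and 7, 8, 2, 3 and 7 in injured regions 4, 5, 7, 8 and 11. Normalized to depth, the healthy segments were close together at 19.3, 21.1 and 22.6, and the injured ones lay between 1.73 and 7.05. The log2 fold change was -2.23 (SE 0.40, edgeR adjusted p = 0.00095), or 4.68-fold lower. Of all 26 lower probes, 5 were called in all 8 fits with 1 segment left out, and 7 in 3 or fewer.

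**Figure D4:**
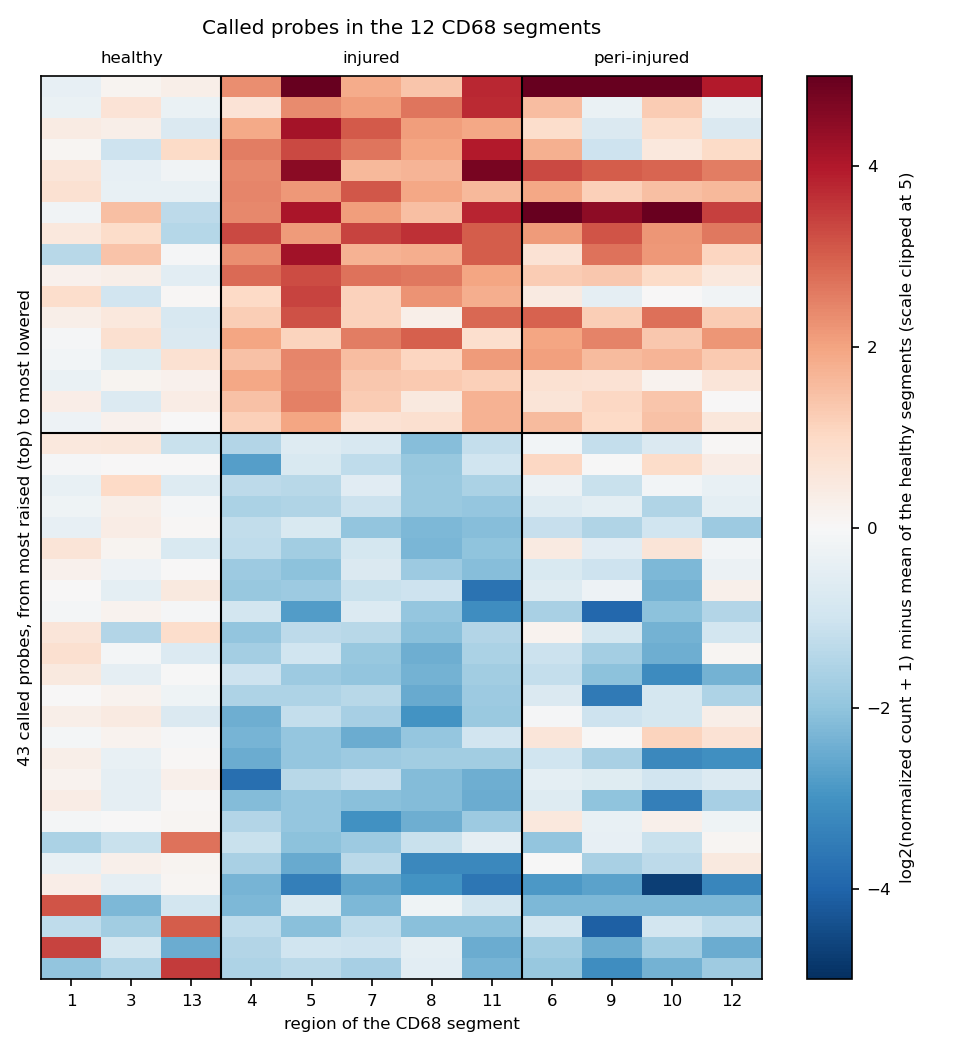
The 43 called probes (rows, from the most raised to the most lowered) in the 12 CD68 segments (columns, grouped by class), colored by log2(normalized count + 1) minus the mean of the 3 healthy segments, with the scale clipped at 5. Among the injured columns, regions 5 and 11 are the darkest red in many but not all of the raised probes. The lowest 4 rows are red in a single healthy segment.

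The peri-injured segments of the same injured mouse (regions 6, 9, 10 and 12) are set beside these values. They share the healthy segments with the comparison above, and their values are therefore given side by side. Their total counts were 93567, 21955, 89506 and 33021, so that regions 9 and 12 were shallower than every injured and healthy segment. The 17 raised probes held 1.79%, 2.13%, 1.93% and 1.23% of the counts in peri-injured regions 6, 9, 10 and 12, within the injured range of 1.02% to 2.33%. The 26 lowered probes held 1.02%, 0.765%, 0.554% and 0.99%, which lies between the injured and the healthy segments.

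Single probes differed in where the peri-injured segments stood. RTS0081477 had normalized counts of 299, 195, 455 and 69.4 in peri-injured regions 6, 9, 10 and 12. Its log2 fold change from injured to peri-injured segments was 1.87 (SE 0.47, edgeR adjusted p = 0.0122). RTS0064055 had normalized counts of 211, 175, 161 and 127 there, between the low and the high injured regions. RTS0076368 was as low as in the injured segments, with normalized counts of 12.1, 14.1, 2.68 and 9.06. RTS0080437 was not lowered there, with normalized counts of 30.9, 16.1, 25.5 and 18.1. Its log2 fold change from healthy segments was 0.17 (SE 0.37, edgeR adjusted p = 0.923). It was higher than in injured segments by 2.39 on the log2 scale (SE 0.37, edgeR adjusted p = 4.2e-05).

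The same contrast in the non-immune segments of the same 8 regions was tested on the same probes, to set the tissue without CD45 beside the CD68 segments. There 134 of the same 6000 probes were called (2.23%), 30 higher (0.5%) and 104 lower (1.73%) in injured regions. Of the 43 CD68 calls, 19 were called in the non-immune segments too, in the same direction, 5 higher and 14 lower. These were 44.2% of the CD68 calls and 14.2% of the non-immune calls. For the 17 raised probes the non-immune log2 fold change was between 0.08 and 3.23 with a median of 0.92, and for the 26 lowered ones between -2.02 and 0.00 with a median of -1.21, against a median of 0.12 over all 6000 probes.

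The lowered probe RTS0076368 fell in the non-immune segments as well. Its normalized counts there, scaled apart from the CD68 segments, were 949, 1345 and 1020 in healthy regions 1, 3 and 13 and 170, 234, 417, 106 and 430 in injured regions 4, 5, 7, 8 and 11. The log2 fold change was -2.02 (SE 0.38, edgeR adjusted p = 0.0017). RTS0064055 was raised by 1.56 (SE 0.41, edgeR adjusted p = 0.0335) in the non-immune segments. Its counts there were 10, 8 and 1 in healthy regions 1, 3 and 13, and this change rests on those few counts. In injured regions 4, 5, 7, 8 and 11 they were 26, 43, 31, 22 and 83. RTS0081477 had a non-immune log2 fold change of 2.62 (SE 1.05, adjusted p = 0.193) and RTS0080437 one of -0.87 (SE 0.24, adjusted p = 0.0512), neither of which passed the threshold.

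A difference between the compartments needs a test of its own, since a call in 1 of them only does not show one. In a fit of all 24 tissue segments with the region as a block, the change in CD68 segments exceeded that in non-immune segments for 5 of the 6000 probes (edgeR adjusted p under 0.05, 0.0833%), and 296 had an unadjusted p under 0.05. Without the block no probe was called by the same test, with 295 at an unadjusted p under 0.05. Of the 43 CD68 calls, 2 were among the 5, both raised, and none of the 26 lowered probes (smallest adjusted p = 0.309). The first was the 25th most abundant probe described above, with a difference of 2.10 (SE 0.42, adjusted p = 0.015 with the block and 0.206 without it). In the non-immune segments it had normalized counts of 44.4, 38.6 and 60.9 in healthy regions 1, 3 and 13 and 60.2, 63.4, 112, 70.3 and 73.3 in injured regions 4, 5, 7, 8 and 11, a log2 fold change of 0.73 (SE 0.25, adjusted p = 0.138). The other had 1, 0 and 2 counts in the healthy CD68 segments and 11, 32, 14, 7 and 41 in the injured ones, with an adjusted p of 0.0498 for the difference. For the other 41 calls, the CD68 and the non-immune change were not shown to differ, nor to be alike.

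**Figure D5:**
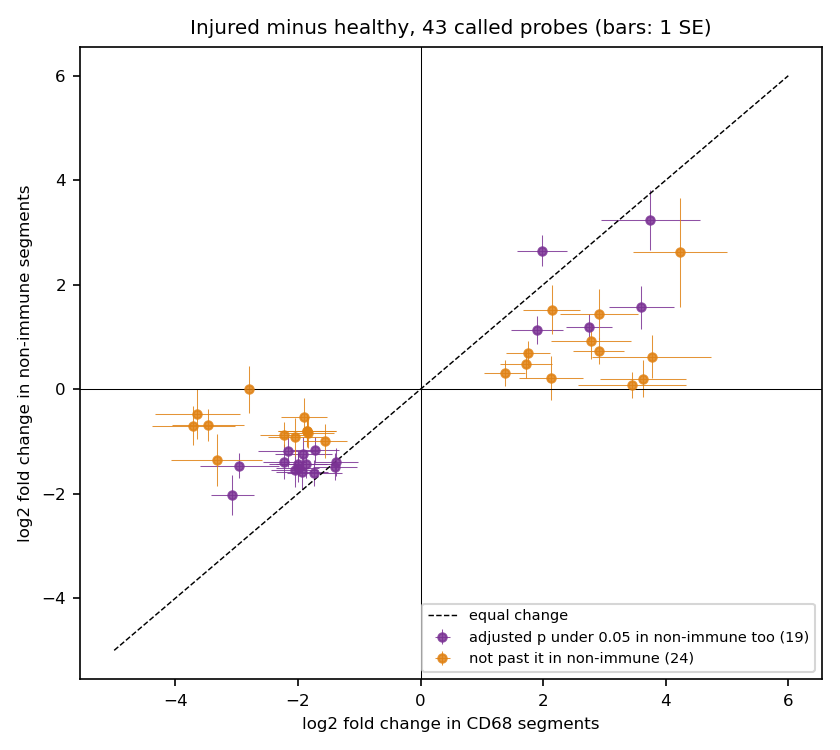
Log2 fold change of injured over healthy regions in the CD68 segments (horizontal axis) and in the non-immune segments (vertical axis) for the 43 probes called in CD68 segments, with bars of 1 SE and a dashed line of equal change. The 19 probes past the threshold in both (purple) and the 24 past it in CD68 segments alone (orange) mostly lie nearer to 0 on the vertical than on the horizontal axis, on which they were chosen.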

How the data were processed

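The authors deposited raw counts of each probe, from reads aligned to probe barcodes and freed of duplicates by molecular identifier in the GeoMx NGS Pipeline 2.3.4, without filter or normalization. A probe with no entry in a file was read as 0. Segment areas (a signal column, unit not named) came from the authors' deposited worksheet. The reaction without tissue was not used.

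The study kept 6000 genes, normalized them to the third quartile and used a linear mixed model in which the region was a random effect. Here the 6000 probes with the highest mean share over the 12 CD68 segments were kept. Their counts were scaled to the upper quartile (75th percentile) and fitted with edgeR 4.0.16 in R 4.3.3 (quasi-likelihood test, 1 term per class, Benjamini-Hochberg adjustment over all 6000). With 1 CD68 segment per region, a region effect could not be separated from the residual. Normalized counts are counts over these scaling factors. The SE is the log2 fold change divided by the square root of F. The tests were checked on simulated data.

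Named probes are the 2 highest and 2 lowest changes among called probes with no overlap of the classes and a call in all 8 fits with 1 segment left out. Probes described by abundance rank were chosen after their values were seen. The probes, lists and tests were chosen with earlier results of these data known.

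CD68 and non-immune segments are paired by region, since both come from the same place. Their deviations from the class means correlated by -0.004 to 0.143 over 12 regions (median 0.066), with 2 above 0.1. The block in the fit of both compartments rests on the labels. Total counts of 35909 to 119493 in the injured and healthy CD68 segments, and of 21955 to 93567 in the peri-injured ones, limit the precision. The p-values and SE cover the spread between these regions only. Alternatives were TMM and total count scaling, DESeq2 1.42.0, limma 3.58.1 (pseudocount 1), 10000 probes, the filter of edgeR, no filter, 8 segments only, thinning to 35909 counts (median of 5 draws) and leaving out each segment. The plots used Python 3.11.15 and matplotlib 3.10.9.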

Additional observations from a re-analysis of the deposited data

Results flagged for a closer look

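Injured region 5 stood apart from the other 4 injured CD68 segments in depth. Its total count was 119493 against 71786 to 84152, and 19702 probes had a count against 18611 to 18907. It also stood apart in RTS0081477, with a normalized count of 236 against 11.1 to 60.4. These were 3 of 15 combinations of a value and a class examined by Dixon's criterion, by which chance flags about 1 in 20. Without region 5, 28 probes were called, 7 higher and 21 lower.

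For 5 probes the change from healthy to injured regions differed between the CD68 and the non-immune segments when each region was a block (edgeR adjusted p under 0.05). The differences on the log2 scale were 2.41, 2.10, 2.45, 1.43 and 3.66, all toward a higher change in CD68 segments, and the adjusted p-values were 0.00828, 0.015, 0.0227, 0.0308 and 0.0498. Those of 2.10 and 3.66 belong to probes called higher in injured CD68 segments. In the other 3 the CD68 change was small, at 0.50, 0.40 and 0.72, and no call was made for it. Their non-immune log2 fold changes were -1.92, -2.10 and -0.74 (edgeR adjusted p = 4.0e-06, 0.0037 and 0.0733). For the probe with the difference of 2.45, a single healthy non-immune segment stood out, with 184 counts in region 3 against 17 and 5 in regions 1 and 13 and 19 to 47 in the injured regions. Without the block the adjusted p-values of the 5 were between 0.116 and 0.851.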

How the results depend on the processing

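The 4 named probes kept their direction and stayed past the threshold under all 17 alternatives each. The largest adjusted p was 0.0461, for RTS0081477 under DESeq2. For the 8 of these alternatives that left out 1 segment, the call was fixed by the rule that named the probes. The counts of calls, which no such rule fixed, changed with the processing. The 43 calls (17 higher, 26 lower) became 67 (11 and 56) with total count scaling, 17 (5 and 12) with DESeq2, 82 (37 and 45 of 1004 probes) with the filter of edgeR, 57 (17 and 40 of 20175) with no filter, 38 (26 and 12) with limma, 44 (13 and 31) with TMM and 47 (15 and 32) with 10000 probes, of which 37, 17, 35, 40, 26, 39 and 40 were among the 43. All 17 calls of DESeq2 were among the 43. The cause was not tested. With each of the 8 segments left out, the calls ranged from 22 to 37, those higher from 6 to 18 and those lower from 15 to 21. There were 6 higher calls without healthy region 1, 10 without healthy region 3, 8 without healthy region 13 and 7 without injured region 5, and 15 lower calls without injured region 11. Without injured region 4, which the study's annotation and the labels place differently, there were 36 calls in all (17 higher, 19 lower). The median log2 fold change of 0.21 was 0.0398 with TMM, -0.12 with total count scaling (reversed), 0.0583 with DESeq2, 0.12 with 10000 probes, 0.0278 with the filter of edgeR and 0.0822 at equal depth, and 0.17 to 0.23 with a segment left out. The share of variance was 17.2% to 27.9% under all alternatives and kept an exact permutation p under 0.05, as low as 24.6% and as high as 27.9% with a segment left out.

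The 134 non-immune calls ranged from 69 to 202 with a region left out, at 69 without healthy region 1, 79 without healthy region 3 and 202 without injured region 5. The 5 probes whose change differed between compartments became 8 with 10000 probes and 0 without the replicate block, where 295 had an unadjusted p under 0.05 by edgeR. They ranged from 0 to 5 with a region left out. The 0 came without healthy region 13, with 303 probes at an unadjusted p under 0.05. The same-region correlations (-0.004 to 0.143) do not by themselves pair the segments, and 7 of 12 correlated best with their own region.

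For the segment measures, leaving out a segment gave differences of 30794 to 44953 in total count, 2453 to 3811 in probes with a count, 423 to 611 in probes at equal depth, 4866 to 7911 in area, 4.71 to 8.78 percentage points in background share, -1466 to -86.2 in counts per 1000 units of area and -0.651 to 0.156 percentage points in the share of the top 100 probes, which changed sign. The exact permutation test cannot pass 0.05 with so few segments.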

Other observations

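The largest fitted log2 fold change of all 6000 probes, 6.09 (SE 1.95, edgeR adjusted p = 0.198), was not a call. That probe had 41 counts in injured region 4, 0 in regions 5 and 7, 2 in region 8 and 3 in region 11, and 0 in all 3 healthy segments. Most of its counts were thus in 1 injured segment, that of region 4, whose tissue number is in doubt.

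The identifiers that follow RTS0076368 directly by 1 and 2 were also called lower in injured CD68 segments, with log2 fold changes of -2.23 and -1.91 against -3.07. They were the 28th and the 10th most abundant probes. No other called probes had consecutive identifiers. What the order of identifiers stands for was not given in the sources used here, and these probes were picked out after their values were seen.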
